A study of Ovis aries with 40 samples.

Results

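The distal lung of fetal sheep was compared between day 120 and day 100 of gestation, in 8 of the 40 libraries of the series. The members were the 4 libraries taken at day 120 (2 WT and 2 CF) and the 4 taken at day 100 (2 WT and 2 CF), and the change common to both genotypes was estimated with genotype as a covariate. WT were unmodified American Romney sheep bred naturally. CF were CFTR-/- sheep of the same breed, made by somatic cell nuclear transfer from 1 male fetal fibroblast line in which exon 2 of CFTR, the chloride and bicarbonate channel gene mutated in cystic fibrosis, had been targeted, so the CF fetuses were clones of 1 line whereas the WT fetuses were not. The labels name no treatment in any group. The labels call the material epithelial tissue, but the samples were pieces of whole lung tissue sequenced in bulk from poly(A) RNA. The comparison addresses which genes change as the canalicular lung becomes saccular, and whether WT and CF change alike.

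As background, the fetal lung grows by branching of epithelial tips that divide and express SOX9 and ETV5 in response to FGF signals from the mesenchyme. In the canalicular and saccular stages the tips stop branching and widen, and their cells become alveolar type 1 cells, which are flat and serve gas exchange, or alveolar type 2 cells, which make surfactant. Capillaries come to lie against the thinning epithelium, and elastic fibres are laid down in the walls where septa will form.

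The 8 libraries held between 24670355 and 95350386 reads assigned to genes. Depth moved with genotype (24670355 to 41282976 reads in WT and 86480033 to 95350386 in CF) and overlapped between the days within each genotype. Both WT day 100 libraries carry the same animal label, and the animal label of CF day 100 replicate 2 also stands on WT day 65 replicate 2. The WT day 100 pair differed by more than sampling noise (chi-square per degree of freedom 7.3). By this measure it was the closest pair, against 34.78 in WT day 120, 36.35 in CF day 100 and 527.5 in CF day 120. Its root mean square difference was about that of the CF day 100 pair (0.242 and 0.241 log2 units over 13955 genes of average log2 CPM 1 or more), at lower depth. The 2 CF day 120 libraries stood apart from each other. Their root mean square difference over the same genes was 0.782 log2 units, against 0.241 to 0.482 for the other 3 pairs and 0.599 for the CF day 120 mean against the CF day 100 mean. That difference rose with exon length, from a median of -0.61 among the shortest 20% of genes to 0.51 among the longest 20%, and its part in the results was not tested beyond the fits given beside them. The lung markers SFTPC, a surfactant protein of type 2 cells, and NKX2-1, the lung lineage factor, were read in every library, at 678 to 4650 CPM and 83.5 to 158 CPM respectively. Markers of endothelium (PECAM1, 312 to 713 CPM) and of fibroblasts (COL1A1, 1521 to 3784 CPM) were present as well, so the material was not epithelium alone. CFTR was read in both WT and CF (values below). It was lower in both CF libraries than in both WT ones at day 100 and overlapped between the genotypes at day 120. The paper reports it as lower in CF, possibly through decay of the edited transcript. A gene count does not show an edit of 1 exon, so the genotype labels could not be checked with it. In bulk tissue, fewer cells of a type and less RNA per cell cannot be told apart.

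Gene expression was measured as read counts per gene, and levels are given as CPM (counts divided by library size) after TMM normalisation, a scaling that sets the bulk of genes level between libraries. CPM are compared within a gene only, since they are not divided by gene length. The test was edgeR's quasi-likelihood test over 18154 genes with Benjamini-Hochberg adjustment, and every adjusted p below comes from it. Differentially expressed genes (DEGs) met both limits of the study, a change of 0.58 log2 units or more in either direction and an adjusted p no higher than 0.001. A member of a gene list is said to have risen or fallen at an adjusted p of 0.05 or less.

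Between day 100 and day 120, 38 DEGs were higher (0.209% of genes tested) and 41 were lower (0.226%). All counts here take both WT day 100 libraries, which carry the same animal label, as separate replicates. At an adjusted p of 0.05 or less, 998 genes were higher (5.50%) and 746 lower (4.11%). The median DEG rise was 1.81 and the median DEG fall -1.33 on the log2 scale, and the median change of all genes was 0.02. In 1146 genes (6.31%) all 4 day 120 libraries lay above all 4 day 100 libraries, and in 1085 (5.98%) all lay below. All 79 DEGs were among these and had the same sign in WT and in CF, both of which the test itself favours. Over all genes, estimated from separate libraries, the WT and CF changes had the same sign in 66.8% of 18154 genes (r = 0.44 across genes, which are not independent replicates) and in 68.7% of the 13955 genes of average log2 CPM 1 or more (r = 0.64).

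The counts of DEGs depended on single libraries. Without either CF day 120 library they rose to 81 and 122 higher and 80 and 108 lower, without WT day 120 replicate 1 or 2 they fell to 3 and 12 higher and 4 and 8 lower, and without WT or CF day 100 replicate 1 or 2 they fell to 0 to 3 higher and 2 or 3 lower. At an adjusted p of 0.05 or less, genes higher numbered 480 and 499 without WT day 100 replicate 1 and 2, 653 and 773 without those of WT day 120, 474 and 488 without those of CF day 100, and 1479 and 1661 without those of CF day 120. The genes lower moved likewise, between 369 and 1563. All 79 DEGs kept their direction and an adjusted p of 0.05 or less in each of these 8 fits. For each gene list below, the range of its count over the 8 fits stands in brackets after the count, and each count is to be read against the 5.50% of all genes that rose and the 4.11% that fell. In each of these fits 1 group is left with a single library, which is assumed to vary like the other groups. Some genes stand in more than 1 list, so the list counts are not independent of each other. The members named are those with the largest change or those that define the list, together with others, such as TOP2A, LAMP3 and ABCA3, that were chosen after their values were seen.

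**Figure D1:**
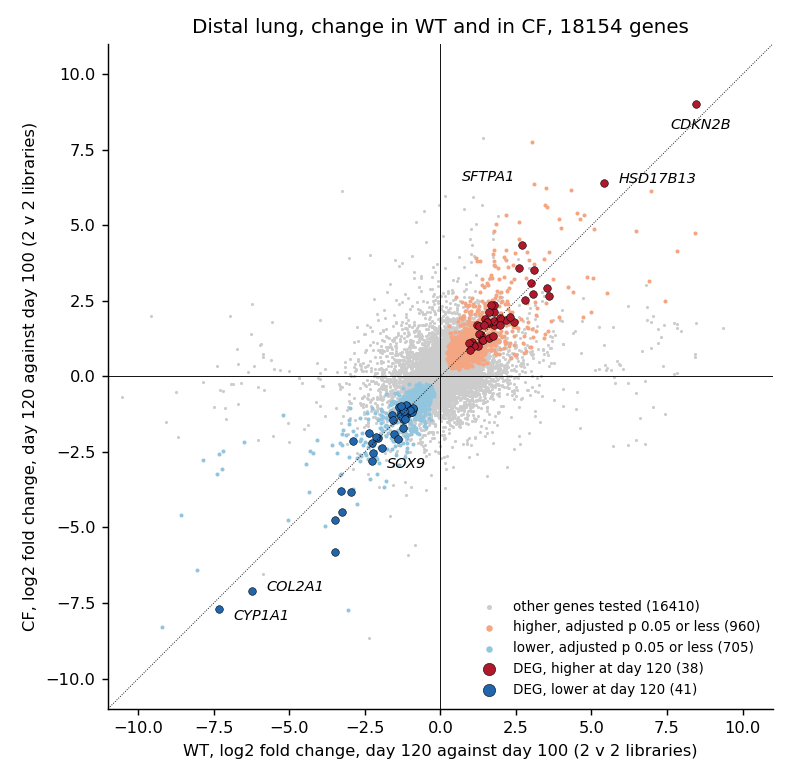
Log2 fold change between day 100 and day 120 in WT (horizontal axis) and in CF (vertical axis) for the 18154 genes tested, each from 2 against 2 libraries, with the dotted line marking equal change. The 38 DEGs that rose lie in the upper right and the 41 that fell in the lower left, and SFTPA1 lies above the line, with a change of 3.11 in WT and 6.35 in CF.

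The genes that rose most belonged to several compartments. CDKN2B, an inhibitor of the cyclin-dependent kinases that drive cells into S phase (chromosome 2, 89742765 to 89746881, Oar_v4.0), had 0 and 2 reads in the WT day 100 libraries and 2 and 0 in those of CF, against 337 and 298 reads in WT and 684 and 422 in CF at day 120. It was therefore almost without reads at day 100 and read in all 4 day 120 libraries, at 4.46 to 14.4 CPM. The fitted log2 fold change of 8.76 (adjusted p = 0.000209) rests on those few reads and gives no bound on the size. HSD17B13, an enzyme of lipid droplets best known from liver, was at 1.21 and 0.614 CPM in WT and 0.384 and 0.558 in CF at day 100, and at 47.9 and 27.9 in WT and 29.6 and 50.2 in CF at day 120, a log2 fold change of 5.94 (SE 0.37, adjusted p = 0.000191). The 2 groups were more than 20 CPM apart.

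Other DEGs among the 15 with the largest rise were PKHD1L1, a marker of lymphatic endothelium (log2 fold change 3.22, adjusted p = 0.000412), FMO1, a flavin monooxygenase (3.09, adjusted p = 0.00085), SLC1A1, a glutamate transporter (3.05, adjusted p = 0.00025), and HIGD1B, a pericyte marker (2.89, adjusted p = 0.000992). ST6GALNAC5, a sialyltransferase, rose by 2.66 (adjusted p = 0.000564), and SEMA6D, a semaphorin guidance cue, rose by 2.11 (adjusted p = 0.000412). ADM, the vasodilator adrenomedullin, was at 10.9 and 11.8 CPM in WT and 8.66 and 8.50 in CF at day 100, and at 39.7 and 37.6 in WT and 39.1 and 49.3 in CF at day 120 (log2 fold change 2.07, SE 0.16, adjusted p = 0.00025). The 4 day 100 values of ADM lay within 4 CPM of each other, and all day 120 values were at least 3 times as high. Smaller DEG rises included the thrombin receptor of endothelium THBD (1.48, adjusted p = 0.00025), the AP-1 subunit JUNB (1.44, adjusted p = 0.000999) and the elastic fibre protein FBLN5 (1.1, adjusted p = 0.000992).

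COL2A1 and CYP1A1 were among the DEGs with the largest falls. COL2A1, the chief collagen of cartilage (chromosome 3, 138202874 to 138233138), was at 142 and 117 CPM in WT and 105 and 120.1 in CF at day 100, and at 1.11 and 2.24 in WT and 0.946 and 0.676 in CF at day 120 (log2 fold change -6.69, SE 0.28, adjusted p = 2.28e-05). Its level thus dropped from above 100 CPM to below 2.5 CPM in both genotypes. CYP1A1, an oxidase induced by the aryl hydrocarbon receptor, had 158 and 216 reads in WT and 688 and 770 in CF at day 100, and 2 and 0 in WT and 4 and 2 in CF at day 120. CYP1A1 was almost without reads at day 120, so its fitted log2 fold change of -7.58 (adjusted p = 0.000191) gives no bound on the size.

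HS6ST2, a heparan sulfate 6-O-sulfotransferase, was at 24.9 and 23.5 CPM in WT and 21.7 and 24.7 in CF at day 100, and at 1.70 and 2.54 in WT and 0.338 and 0.486 in CF at day 120 (log2 fold change -4.62, SE 0.48, adjusted p = 0.000904). SERTM1, a small membrane protein gene, was among the more abundant DEGs that fell, from 230.1 and 222 CPM in WT and 202 and 236 in CF to 21.8 and 25.5 in WT and 8.72 and 10.8 in CF (log2 fold change -3.87, SE 0.26, adjusted p = 0.000196). The groups of both genes were separated in every library. PROM2, a protein of membrane protrusions, fell by 3.42 on the log2 scale (adjusted p = 0.000575), and UCHL1, a ubiquitin hydrolase of neurons and neuroendocrine cells, fell by 2.51 (adjusted p = 0.00025). ADAMTS6, a matrix metalloprotease, fell by 2.23 (adjusted p = 0.00047), the actin-binding AIF1L fell by 2.10 (adjusted p = 0.00025) and the alpha-2A adrenergic receptor ADRA2A fell by 2.04 (adjusted p = 0.000564).

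**Figure D2:**
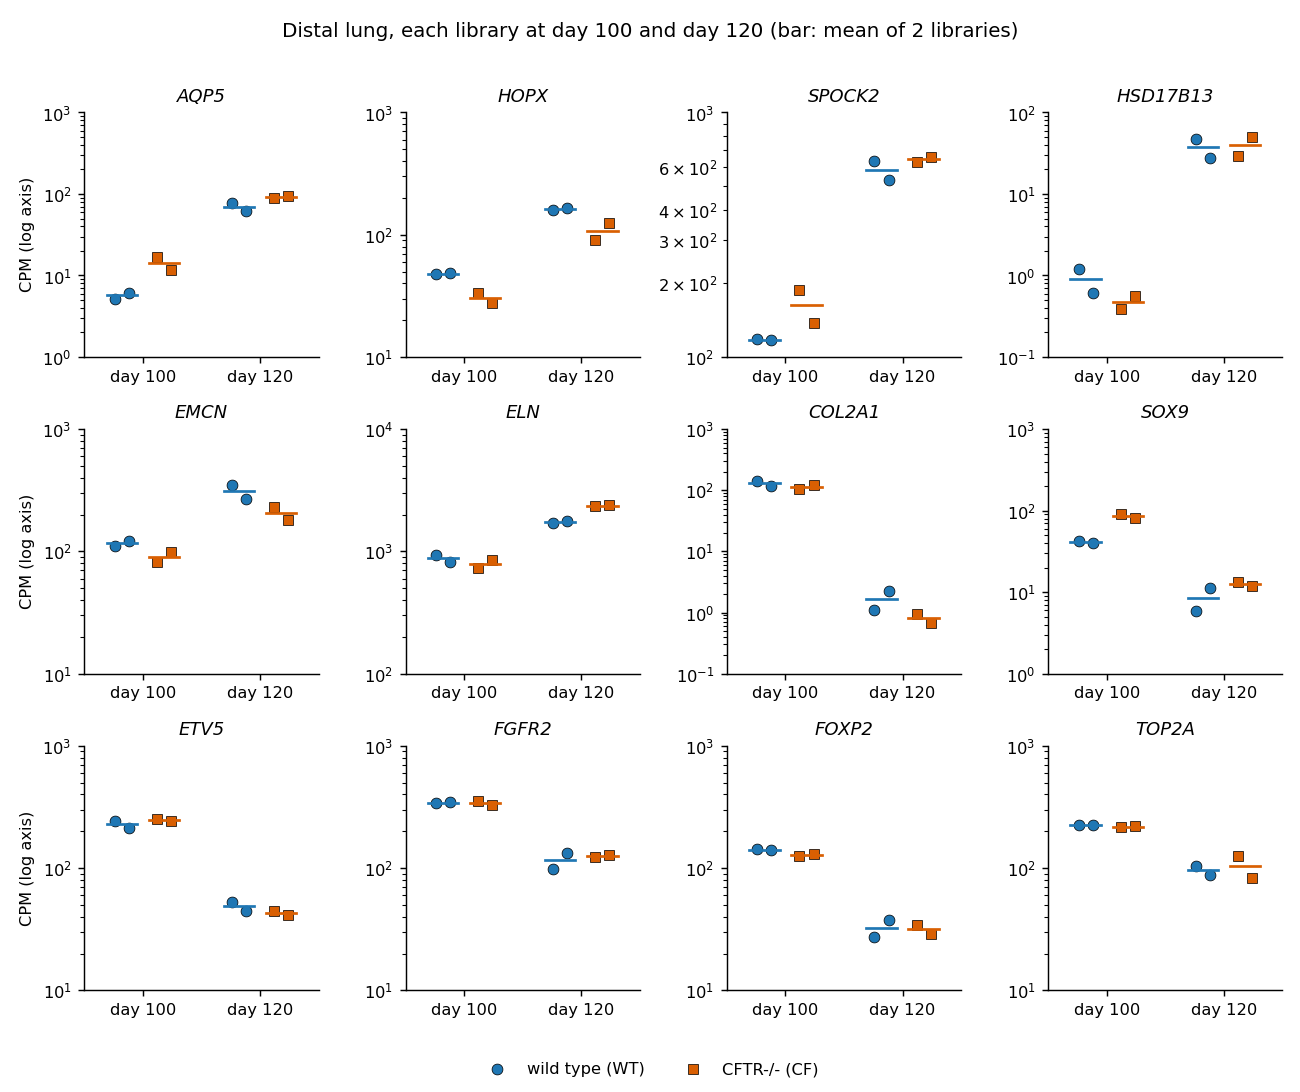
TMM-normalised CPM on a log axis in each of the 8 distal lung libraries for 12 genes, with day on the horizontal axis, WT as circles and CF as squares, and a bar at the mean of the 2 libraries. In every panel all 4 libraries of day 120 lie on 1 side of the 4 of day 100, higher for AQP5, HOPX, SPOCK2, HSD17B13, EMCN and ELN and lower for COL2A1, SOX9, ETV5, FGFR2, FOXP2 and TOP2A.

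Most genes of alveolar type 1 cells rose. Of 26 type 1 genes tested, 17 rose (11 to 18) and none fell (1 without CF day 120 replicate 2), against 5.50% and 4.11% of all genes. The median log2 fold change was 0.94 beside 0.02 for all genes, and 14 had all 4 day 120 libraries above all 4 of day 100, as did 6.31% of all genes. The count dropped to 11 without WT day 100 replicate 1 or CF day 100 replicate 2. AQP5, the water channel of type 1 cells (chromosome 3, 135974463 to 135978295), was at 5.21 and 6.17 CPM in WT and 16.9 and 11.8 in CF at day 100, and at 77.6 and 61.7 in WT and 88.6 and 93.7 in CF at day 120 (log2 fold change 3.12, SE 0.22, adjusted p = 0.000243). CF exceeded WT at both days, and the lowest day 120 value was over 3 times the highest day 100 value. HOPX, a homeodomain cofactor of the type 1 lineage, was at 47.5 and 48.6 CPM in WT and 33.1 and 27.7 in CF at day 100, and at 160.2 and 165 in WT and 90.4 and 126 in CF at day 120 (log2 fold change 1.79, SE 0.12, adjusted p = 0.000213). Here WT was the higher genotype at both days. SPOCK2, a matrix proteoglycan, was at 118 and 117 CPM in WT and 189 and 138 in CF at day 100, and at 632 and 528 in WT and 628 and 657 in CF at day 120 (log2 fold change 2.14, SE 0.14, adjusted p = 0.000196).

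The classical type 1 markers PDPN, the podoplanin of the apical membrane, and AGER, the RAGE receptor, rose by 1.38 (SE 0.15, adjusted p = 0.001) and 1.2 (SE 0.21, adjusted p = 0.00763). AGER was already at 257 and 275 CPM in WT and 274 and 245 in CF at day 100. The alveolar basement membrane collagens COL4A3 (2.25, adjusted p = 0.00109) and COL4A4 (1.38, adjusted p = 0.00677) and the caveolar protein CAV1 (1.1, adjusted p = 0.0126) rose as well. CLIC5, a cytoskeletal chloride channel relative, rose by 1.89 (SE 0.44, adjusted p = 0.0254), but its 2 CF day 120 libraries read 283 and 59.4 CPM, the widest spread among these genes.

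Type 2 genes moved in both directions. Of 22 tested, 9 rose (5 to 11) and 3 fell (3 in each), with a median of 0.37. The count that rose was 5 without CF day 100 replicate 1. The risers were the surfactant proteins SFTPA1, SFTPB, SFTPC and SFTPD, the proteases NAPSA and CTSH, the mucin MUC1, the transporter SLC22A31 and the carbonic anhydrase CA2, listed as LOC101113341. SFTPA1, a collectin of surfactant (chromosome 25, 35170066 to 35174178), was at 22.6 and 26.4 CPM in WT and 13 and 18.2 in CF at day 100, and at 232 and 190.1 in WT and 1278 and 1273 in CF at day 120 (log2 fold change 4.74, SE 0.67, adjusted p = 0.00296). It rose in both genotypes, and the rise differed between them (below). NAPSA, the protease that processes pro-surfactant proteins, rose by 3.69 (SE 0.44, adjusted p = 0.00148). SFTPC was at 1101 and 1126 CPM in WT and 678 and 882 in CF at day 100, and at 1717 and 2215 in WT and 2329 and 4650 in CF at day 120 (log2 fold change 1.49, SE 0.32, adjusted p = 0.0184). Its groups did not overlap, but the 2 CF day 120 values lay far apart, at 2329 and 4650 CPM. The collectin SFTPD (1.74, adjusted p = 0.00482), MUC1 (1.47, adjusted p = 0.00303) and SFTPB, the surfactant protein needed for lamellar bodies (0.98, adjusted p = 0.0411), rose by less. SFTPB at day 120 was at 546 and 583 CPM in WT and 1802 and 1699 in CF, and the lowest of these lay below the CF level of day 100 (560 and 548 CPM).

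The type 2 members that fell were ETV5, FGFR2 and LAMP3, the membrane protein of lamellar bodies. LAMP3 was at 728 and 683 CPM in WT and 678 and 736 in CF at day 100, and at 256 and 330.4 in WT and 423 and 395 in CF at day 120 (log2 fold change -1.03, SE 0.14, adjusted p = 0.00255). All 4 day 120 values of LAMP3 lay below all 4 of day 100 while those of SFTPC lay above. ABCA3, the lipid transporter of lamellar bodies, was at 24.2 and 26 CPM in WT and 36.3 and 32.5 in CF at day 100, and at 12.6 and 17.4 in WT and 60.4 and 56.5 in CF at day 120, lower in WT and higher in CF, with no shared change by the test (log2 fold change 0.03, SE 0.28, adjusted p = 0.973). NKX2-1 overlapped between the days (log2 fold change -0.1, SE 0.19, adjusted p = 0.816). Of 36 enzymes and regulators of surfactant lipid synthesis tested, 2 rose (0 to 6) and 1 fell (1 to 3), with a median of 0.09, near the all-gene shares of 5.50% and 4.11%. These were the sterol regulators INSIG1 (1.2, adjusted p = 0.0202) and SREBF1 (0.51, adjusted p = 0.0237), which rose, and the CDP-diacylglycerol synthase CDS1, a DEG that fell from 117 and 112 CPM in WT and 107 and 138 in CF to 48 and 51.9 in WT and 53.5 and 46.1 in CF (log2 fold change -1.25, adjusted p = 0.00047).

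Genes of the branching tip and other fetal regulators fell in part. Of 24 tip progenitor and oncofetal genes tested, 9 fell (7 to 10) and 1 rose (0 to 2), with a median of -0.40. SOX9 (chromosome 11, 57720431 to 57725439), the transcription factor of tip progenitors and also of cartilage, was at 42 and 40.2 CPM in WT and 91.1 and 82.4 in CF at day 100, and at 5.88 and 11.2 in WT and 13.2 and 11.9 in CF at day 120 (log2 fold change -2.52, SE 0.21, adjusted p = 0.000328). CF libraries were above WT libraries at day 100, and every library was below 14 CPM at day 120. ETV5 (chromosome 1, 199188769 to 199249358), an ETS factor induced by FGF signals in tips and in type 2 cells, was at 244 and 214 CPM in WT and 252 and 244 in CF at day 100, and at 52.7 and 44.9 in WT and 44.8 and 41.1 in CF at day 120 (log2 fold change -2.38, SE 0.12, adjusted p = 3.78e-05). FGFR2, the epithelial FGF receptor upstream of it, was at 339 and 346 CPM in WT and 354 and 326 in CF, and then at 98 and 133 in WT and 123 and 129 in CF (log2 fold change -1.5, SE 0.12, adjusted p = 0.000275). WT and CF lay close together at both days for ETV5 and FGFR2.

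FOXP2, a forkhead repressor of the distal epithelium, went from 143 and 139.6 CPM in WT and 126 and 129.8 in CF to 27.1 and 37.3 in WT and 34.3 and 28.7 in CF (log2 fold change -2.08, SE 0.12, adjusted p = 0.000173). TRIM71, a target of the let-7 microRNAs that marks embryonic states, went from 5.25 and 6.06 CPM in WT and 12.6 and 11.3 in CF to 0.426 and 0.560 in WT and 0.608 and 0.275 in CF (log2 fold change -4.19, SE 0.38, adjusted p = 0.00047). All 4 values of each gene at day 120 were below all 4 at day 100. The stem cell factor SALL4 (-2.05, adjusted p = 0.00207), the fetal neural and mesenchymal factor SOX11 (-1.18, adjusted p = 0.000662), the growth factor BMP4 (-0.67, adjusted p = 0.00648) and the let-7 target IGF2BP3 (-0.61, adjusted p = 0.0187) fell too. The member that rose was SPRY4, a feedback inhibitor of FGF signals (0.67, adjusted p = 0.042), whose call was lost in 6 of the 8 fits that leave out 1 library (adjusted p up to 0.153).

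Of 21 lung endoderm genes tested, mostly transcription factors with a few other epithelial genes, 9 fell (3 to 9) and none rose (2 rose without CF day 120 replicate 2), with a median of -0.33. The count that fell was 3 to 5 without a WT or CF day 100 library or without WT day 120 replicate 1. The median of the list was -0.124 in WT and -0.775 in CF. After FOXP2 the largest falls were those of the Iroquois gene IRX2, listed as LOC101102588 (-1.46, adjusted p = 0.00165), of the ETS factor ELF5 (-1.15, adjusted p = 0.0266) and of IRX1 (-0.95, adjusted p = 0.00733).

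Cell division genes fell almost as a whole. Of 57 mitosis genes tested, 52 fell (43 to 55) and none rose, with a median of -0.99, and in 49 of the 57 all 4 day 120 libraries lay below all 4 of day 100. Among all genes tested, 5.98% lay below in the same way. TOP2A, the topoisomerase of dividing cells, was at 225 and 227 CPM in WT and 217 and 220.2 in CF at day 100, and at 104 and 88.2 in WT and 126 and 82.8 in CF at day 120 (log2 fold change -1.15, SE 0.14, adjusted p = 0.00158). The day 100 values of the 4 libraries lay within 10 CPM of each other. The spindle proteins DLGAP5 (-1.43, adjusted p = 0.000575) and CDCA8 (-1.42, adjusted p = 0.00107) and the kinases AURKA (-1.38, adjusted p = 0.00166) and CDK1 (-1.05, adjusted p = 0.00907) fell by similar amounts. MKI67, the gene of the Ki-67 antigen, did not pass the test (log2 fold change -0.88, SE 0.28, adjusted p = 0.0874). Its CF day 120 libraries read 115 and 39 CPM. It passed without either of them, at -1.28 (adjusted p = 0.00301) without replicate 1 and -0.67 (adjusted p = 0.0246) without replicate 2.

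Of 52 DNA replication genes tested, 32 fell (19 to 41) and none rose, with a median of -0.59. The count was 19 or 20 without WT day 100 replicate 1 or either CF day 100 library. RRM2, a subunit of ribonucleotide reductase, went from 65.5 and 70.2 CPM in WT and 67.2 and 63.9 in CF to 29.1 and 26.3 in WT and 28.1 and 25.2 in CF (log2 fold change -1.3, SE 0.10, adjusted p = 0.00025). UHRF1, which maintains DNA methylation at replication, fell by 1.3 on the log2 scale (SE 0.11, adjusted p = 0.000352), and was higher in CF than in WT at both days, at 64.9 and 62.6 CPM in WT and 108 and 106 in CF at day 100. The helicase subunit MCM2 had a change of -0.72 (adjusted p = 0.00649) and PCNA, the sliding clamp, one of -0.49 (adjusted p = 0.0288).

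Cartilage genes were read in these distal pieces at day 100. Of 20 tested, 6 fell (5 to 6) and 1 rose (0 to 2), with a median of -0.51, and their summed level went from 390 to 513 CPM over the day 100 libraries to 256 to 313 CPM over those of day 120. COL2A1 made up much of that drop. Without it the sum was 282 and 274 CPM in WT at day 100 and 288 and 311 CPM at day 120, no lower, and in CF it was 366 and 393 CPM at day 100 and 255 and 279 CPM at day 120. Beside COL2A1 and SOX9, which is also a tip gene, the collagens COL9A1, listed as LOC101102992 (-2.12, adjusted p = 0.00307), and COL9A2 (-1.6, adjusted p = 0.0179) and the factor SOX5 (-1.44, adjusted p = 0.00374) fell. MATN4, a matrilin of cartilage and other matrices, rose (1.0, adjusted p = 0.0231). ACAN, the cartilage proteoglycan aggrecan, was at 5.71 and 5.93 CPM in WT and 6.21 and 4.09 in CF at day 100, and at 2.81 and 11.5 in WT and 18.6 and 10.7 in CF at day 120, with overlapping groups (log2 fold change 0.92, adjusted p = 0.251). The share of cartilage in each piece was not tested.

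Many blood vessel genes rose. Of 40 endothelial genes tested, 28 rose (16 to 34) and none fell, with a median of 0.71, and 39 of them had a positive change (52.1% of all genes tested did). Without any 1 of the 4 day 100 libraries or WT day 120 replicate 1 the count was 16 to 18. EMCN, a sialoglycoprotein of venous and capillary endothelium and the DEG of this list, was at 111 and 121 CPM in WT and 81.7 and 98.2 in CF at day 100, and at 349 and 271 in WT and 229.8 and 181 in CF at day 120 (log2 fold change 1.3, SE 0.13, adjusted p = 0.000885). PECAM1, the adhesion molecule of all endothelium, was at 333 and 334 CPM in WT and 312 and 321 in CF at day 100, and at 642 and 514 in WT and 595 and 713 in CF at day 120 (log2 fold change 0.92, SE 0.12, adjusted p = 0.00234). The groups of EMCN and PECAM1 were apart in both genotypes. The BMP9 receptor ACVRL1 (0.97, adjusted p = 0.00119), the junction proteins CLDN5, listed as LOC101115864 (1.21, adjusted p = 0.0133), and CDH5 (0.7, adjusted p = 0.00715) and the VEGF receptor KDR (0.67, adjusted p = 0.0271) rose by less than 1.3 log2 units.

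Of 24 genes of lung capillaries tested, 10 rose (10 to 14) and none fell, with a median of 0.66. ADRB1, the beta-1 adrenergic receptor, led them (2.16, adjusted p = 0.00235), with CD300LG, a glycoprotein of capillary endothelium (1.69, adjusted p = 0.00404), the angiotensin-converting enzyme ACE (1.6, adjusted p = 0.0031) and the hypoxia factor EPAS1 (1.28, adjusted p = 0.00482). Of 25 ligands, receptors and enzymes of vascular signalling tested, 14 rose (8 to 14) and 1 fell (0 to 3), with a median of 0.67. The count that rose was 8 or 9 without any 1 day 100 library. Many of the vascular signalling risers also stand in the endothelial, capillary or lymphatic list, so these counts are not separate. VEGFA, the chief growth factor of capillaries, was at 76 and 77.2 CPM in WT and 163 and 140.1 in CF at day 100, and at 161 and 144 in WT and 284 and 200.2 in CF at day 120 (log2 fold change 0.83, adjusted p = 0.00587). It rose within each genotype, but WT at day 120 overlapped CF at day 100. The lymphatic growth factor VEGFC (1.07, adjusted p = 0.00477) and the vessel destabiliser ANGPT2 (0.89, adjusted p = 0.0315) rose, and the prostacyclin synthase PTGIS fell (-0.63, adjusted p = 0.0387). Of 10 lymphatic genes tested, PKHD1L1 and the VEGFC receptor FLT4 rose and the multimerin MMRN1 fell (2 to 3 rose and 1 fell in the 8 fits).

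Among mural cells, 6 of 13 pericyte genes rose (5 to 8) and none fell, with a median of 0.42. HIGD1B, at 1.21 and 1.59 CPM in WT and 1.05 and 1.15 in CF at day 100, reached 13.8 and 9.92 in WT and 4.40 and 10 in CF. RGS5, a regulator of G protein signals in pericytes, rose by 1.57 (SE 0.42, adjusted p = 0.0482), with 239.8 and 44.4 CPM in the 2 CF day 120 libraries. Of 22 smooth muscle genes tested, 7 rose (4 to 9) and none fell (1 without CF day 120 replicate 2), with a median of 0.46 and 4 without WT day 100 replicate 1. They included TAGLN, an actin-binding protein (1.09, adjusted p = 0.00313). ACTA2, smooth muscle actin, did not pass the test (0.59, adjusted p = 0.0852), nor did the smooth muscle myosin MYH11 (-0.35, adjusted p = 0.222).

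Elastic fibre genes rose in part. Of 24 tested, 10 rose (4 to 13) and 2 fell (2 to 5), with a median of 0.43. The count that rose was 4 to 6 without any 1 day 100 library or WT day 120 replicate 1. ELN, the gene of elastin, was at 932 and 822 CPM in WT and 731 and 855 in CF at day 100, and at 1704 and 1770 in WT and 2345 and 2402 in CF at day 120 (log2 fold change 1.28, SE 0.15, adjusted p = 0.00148). The replicates of each condition lay close together. MFAP5, a microfibril glycoprotein, rose by 2.54 (SE 0.62, adjusted p = 0.0328), with CF day 120 values of 35.9 and 130.5 CPM. The latent TGF-beta binding protein LTBP2 rose (1.04, adjusted p = 0.0176), and FBN2, the fetal fibrillin, fell (-0.75, adjusted p = 0.00954), as did the growth factor TGFB3 (-0.86, adjusted p = 0.00298).

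Of 36 collagen genes tested, 8 rose (5 to 10) and 1 fell (1 to 2), with a median of 0.22 and 5 risers without WT day 100 replicate 2. Basement membrane chains made up 4 of the 8 that rose (COL4A1, COL4A2, COL4A3 and COL4A4), and COL4A1 rose by 0.76 (adjusted p = 0.00436). The fibrillar COL5A3 rose by 1.7 (adjusted p = 0.0045), and COL25A1, a transmembrane collagen, fell (-0.88, adjusted p = 0.00959). COL1A1, the main interstitial collagen, did not pass the test (0.23, SE 0.19, adjusted p = 0.522). Of 39 other basement membrane and matrix genes tested, 7 rose (3 to 14) and 3 fell (1 to 5), with 3 risers without any 1 day 100 library or WT day 120 replicate 1 and 14 without CF day 120 replicate 2. CTGF, a matricellular target of YAP and TGF-beta, rose by 1.66 (adjusted p = 0.0245), and VCAN, the hyaluronan-binding proteoglycan of provisional matrix, went from 608 and 577 CPM in WT and 543 and 631 in CF to 244 and 279 in WT and 309.6 and 161 in CF (log2 fold change -1.25, SE 0.19, adjusted p = 0.004). Of 23 genes of alveolar fibroblasts tested, 6 rose (4 to 8) and 1 fell (1 in each). The risers included LPL, the lipoprotein lipase of lipofibroblasts (1.28, adjusted p = 0.0281), and MFAP4, an elastic fibre protein (0.97, adjusted p = 0.00404), and the member that fell was WNT2, a mesenchymal ligand that acts on the epithelium, from 81.7 and 75.8 CPM in WT and 67.8 and 79.4 in CF to 36.9 and 30.4 in WT and 13.6 and 18.4 in CF (log2 fold change -1.72, adjusted p = 0.00166).

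The fetal lung secretes liquid by chloride transport and must absorb it at birth by sodium transport, so the transport genes were described by that role. Of 26 tested, 5 rose (4 to 7) and 5 fell (4 to 5). On the secretory side, CFTR was at 33 and 27.5 CPM in WT and 19.7 and 23.7 in CF at day 100, and at 11.4 and 13.5 in WT and 11.7 and 5.87 in CF at day 120 (log2 fold change -1.29, SE 0.21, adjusted p = 0.00568). It fell by a like amount in WT (-1.28) and in CF (-1.31), with a difference between them of -0.03 (SE 0.44, adjusted p = 1). The basolateral chloride loader SLC12A2 (-0.86, adjusted p = 0.00335), the chloride channel SLC26A9 (-0.78, adjusted p = 0.0123) and the potassium channel KCNN4 (-3.28, adjusted p = 0.0111) fell, whereas the calcium-activated chloride channel ANO1 rose (0.62, adjusted p = 0.0213). SLC26A9 was lower at day 120 within each genotype, at 15.1 and 18.5 CPM in WT and 33.8 and 39 in CF, with WT below CF at either day. KCNN4 differed between the genotypes at day 100 (35.1 and 30.6 CPM in WT and 7.56 and 7.40 in CF).

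On the absorptive side, SCNN1A, the alpha subunit of the epithelial sodium channel ENaC, was at 2.77 and 2.76 CPM in WT and 4.64 and 3.26 in CF at day 100, and at 14.7 and 11.9 in WT and 17.9 and 8.42 in CF at day 120 (log2 fold change 1.99, SE 0.27, adjusted p = 0.00266). All day 120 values of SCNN1A exceeded those of day 100. The beta subunit SCNN1B had a log2 fold change of 0.88 (SE 0.26, adjusted p = 0.0643) with overlapping groups. SGK1, the kinase that keeps ENaC at the membrane, rose (1.07, adjusted p = 0.00296), and ATP1B1, the beta subunit of the sodium pump, fell (-1.02, adjusted p = 0.00464). Both water channels that rose, AQP5 of the epithelium and AQP1 of the endothelium (1.35, adjusted p = 0.000662), were DEGs. Tight junction protein TJP1 did not pass the test (0.51, adjusted p = 0.0901).

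Genes of antimicrobial defence and chemokines rose in part. Of 37 tested, 17 rose (7 to 18) and none fell (1 without CF day 120 replicate 2), with a median of 1.22. The count was 7 to 10 without any 1 day 100 library. After SFTPA1 the largest rises that passed were those of the chemokine CCL20 (4.0, adjusted p = 0.0468), of PIGR, which carries IgA across epithelium (3.44, adjusted p = 0.0186), and of the chemokine CXCL1 (2.62, adjusted p = 0.0254), which was at 1.85 (adjusted p = 0.034) without CF day 120 replicate 1. PIGR was at 12.7 and 13.7 CPM in WT and 4.59 and 3.90 in CF at day 100, and at 18.5 and 75.3 in WT and 167 and 112 in CF at day 120, higher in all 4 later libraries but unevenly so. CCL20 at day 120 ranged from 0.341 to 14.9 CPM, with its lowest value within the range of day 100. The CCL20 call was lost in 6 of the 8 fits that leave out 1 library, and its log2 fold change was 2.30 (adjusted p = 0.0559) without CF day 120 replicate 1. CXCL8, the interleukin-8 gene, was low and variable, with 2.98 and 0.789 CPM in WT and 5.19 and 1.34 in CF at day 120 (log2 fold change 2.89, SE 0.95, adjusted p = 0.0931). The protease inhibitors WFDC1 (1.4, adjusted p = 0.00235) and WFDC2 (1.61, adjusted p = 0.00431) rose, and the chitinase-like CHI3L1 rose at the limit of the test (1.61, adjusted p = 0.0498), a call lost in 6 of those 8 fits.

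Of 28 complement and acute phase genes tested, 7 rose (3 to 9) and 1 fell (0 to 2), with 3 risers without either CF day 100 library. C3, the central complement component, was at 43.1 and 55 CPM in WT and 27.9 and 23.5 in CF at day 100, and at 91.8 and 138 in WT and 391 and 340.1 in CF at day 120 (log2 fold change 2.53, SE 0.50, adjusted p = 0.0138). CF was below WT at day 100 and above it at day 120. KNG1, the kininogen gene, rose (2.79, adjusted p = 0.0103), as did a complement C4 gene listed as LOC101123672 (1.39, adjusted p = 0.0105), and CFI, the complement inactivator, fell (-1.2, adjusted p = 0.0143). The paper reports that KNG1, CHI3L1 and C4A rose more in CF than in WT over this interval, by RNA-seq and RT-qPCR. Over 21 refits, some with 1 genotype alone, KNG1 lay between 1.777 and 3.806 log2 units. LOC101123672 lay between 0.764 and 1.975, and CHI3L1 between 0.532 and 2.607. None of these genes passed as a difference between the genotypes, and the pooled changes do not show whether both rose equally. Of 14 antigen presentation genes tested, 8 rose (2 to 10) and none fell (1 without CF day 120 replicate 1), among them CIITA, the switch of class II genes (1.57, adjusted p = 0.0118), and the invariant chain CD74 (1.39, adjusted p = 0.00219). The count was 2 to 4 without any 1 day 100 library or WT day 120 replicate 1.

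Markers of blood cells were tested as other lists. Of 25 macrophage and monocyte genes tested, 5 rose (1 to 7), and their summed level was 341 to 438 CPM at day 100 and 461 to 648 CPM at day 120. The defining receptor CSF1R rose by 0.63 (adjusted p = 0.028). Risers numbered 3 of 10 neutrophil genes (0 to 3), 1 of 18 T and NK cell genes (0 to 1), 1 of 12 B cell genes (1 in each), 2 of 7 mast cell genes (1 to 2) and 4 of 19 erythroid genes (1 to 6), where 5.50% of all genes rose, so the T, NK and B cell counts were near the background. No member of these lists fell, apart from 1 macrophage gene without CF day 120 replicate 2 and 1 B cell gene without WT day 120 replicate 1. The macrophage count was 3 or fewer without any 1 day 100 library or WT day 120 replicate 1. The neutrophil genes were summed to at most 39.3 CPM in any library and the T and NK cell genes to at most 39.5 CPM. The part of these cells in the rise of the defence genes was not tested. Interferon response genes had a median of -0.062 in WT and 0.932 in CF. Of 29 interferon response genes, 3 rose (1 to 4) and none fell (1 without CF day 120 replicate 1).

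Airway lineages changed less evenly. Of 16 secretory cell genes tested, 4 rose (3 to 6), led by the trefoil factor TFF2 (5.37, adjusted p = 0.00109), at 0.851 and 0.665 CPM in WT and 0.461 and 0.955 in CF at day 100 and 18.6 and 12 in WT and 21.5 and 79.6 in CF at day 120. The median of the secretory list was 0.272 in WT and 1.818 in CF. SCGB3A2, a secretoglobin of distal airways, was read at 10.6 and 115 CPM in WT and 112 and 36.4 in CF at day 120, and did not pass the test (2.74, SE 1.00, adjusted p = 0.128). None of 23 ciliated cell genes passed the test in either direction in edgeR (rose (0 to 4)), an unadjusted p below 0.05 was reached by 4 in the higher direction (by 12.9% of all genes tested) and 0 in the lower, and DESeq2 called 2 higher. In this list 22 members had a positive change, beside 52.1% of all genes, and the median was 0.54. Their summed level was 182 to 375 CPM at day 100 and 253 to 597 CPM at day 120. The median of the basal cell list was 0.005 in WT and 1.405 in CF. Of 10 basal cell genes, 2 rose (2 in each) and none fell (1 without CF day 120 replicate 1). Of 16 neuroendocrine genes tested, 4 fell (3 to 5) and none rose, and their summed level dropped from 167 to 230 CPM to 89.1 to 106 CPM. The median of the neuroendocrine list was -0.194 in WT and -0.968 in CF. Without UCHL1 the sum was 88.5 to 118 CPM at day 100 and 75 to 85.8 CPM at day 120. Beside UCHL1 they were GRP, the gastrin-releasing peptide gene, which had fewer than 1 CPM in every library and lost its call in 7 of the 8 fits that leave out 1 library, the granule protein gene SCG5 (-2.32, adjusted p = 0.00148) and the decarboxylase DDC (-1.72, adjusted p = 0.00106).

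Signalling pathways were described by role. In the FGF pathway, 4 of 23 members fell (2 to 4) and 2 rose (0 to 3). The ligand FGF20 fell (-1.92, adjusted p = 0.0445) with the receptor FGFR2 and the targets ETV4 (-0.92, adjusted p = 0.0114) and ETV5, while FGF7, a mesenchymal ligand of FGFR2, rose (0.82, adjusted p = 0.00963). Receptor and ETS targets thus fell in the same libraries in which this ligand rose. FGF20 was low throughout, at most 3.61 CPM, and its call was lost in 7 of the 8 fits that leave out 1 library. In the WNT pathway, 7 of 44 rose (3 to 12) and 4 fell (3 to 5), with 3 or 4 risers without either WT day 100 library and 12 without CF day 120 replicate 2. The ligands WNT2 and WNT7B, made by mesenchyme and epithelium respectively (-1.0 for WNT7B, adjusted p = 0.00729), and the secreted modulator SFRP4 (-2.18, adjusted p = 0.0143) fell, and the secreted inhibitors WIF1 (1.56, adjusted p = 0.0185) and NOTUM (0.96, adjusted p = 0.0105) rose. Other WNT ligands and WNT receptors were also among the 7 that rose, and a WNT receptor was among the 4 that fell.

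In the BMP and TGF-beta pathways, 10 of 36 rose (5 to 14) and 3 fell (2 to 3), with 5 risers without either CF day 100 library. The ligands BMP6 (2.62, adjusted p = 0.00153) and BMP2 (1.1, adjusted p = 0.00109) and the activin antagonist FST (1.75, adjusted p = 0.00783) rose, whereas BMP4, TGFB3 and the pseudoreceptor BAMBI (-0.83, adjusted p = 0.012) fell. In the Notch pathway 6 of 20 rose (3 to 9) and none fell (1 without CF day 120 replicate 1), with 3 without either CF day 100 library. These included the endothelial ligand DLL4 (0.72, adjusted p = 0.0102) and the target HEYL (0.79, adjusted p = 0.00884). In the hedgehog pathway, 2 of 16 rose (2 in each) and 1 fell (0 to 3), in the IGF and PDGF pathways 4 of 18 rose (2 to 6) and 1 fell (0 to 3), and in the retinoic acid pathway 2 of 17 rose (1 to 3) and 2 fell (1 to 4). The hedgehog and retinoic acid counts of 1 or 2 are close to what 5.50% and 4.11% of all genes would give in lists of this size. The retinoic acid members that fell were the cellular binding proteins CRABP2, from 7.55 and 7.96 CPM in WT and 11.3 and 14.1 in CF to 0.809 and 2.24 in WT and 1.27 and 2.58 in CF (log2 fold change -2.53, adjusted p = 0.00255), and CRABP1 (-1.09, adjusted p = 0.0304).

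Glucocorticoids mature the fetal lung before birth. Of 23 glucocorticoid response genes tested, 4 rose (3 to 5) and 3 fell (1 to 3). KLF9, a Kruppel-like factor induced by the hormone, was at 15 and 13.9 CPM in WT and 17.9 and 17.2 in CF at day 100, and at 45.2 and 47.1 in WT and 30.4 and 35.6 in CF at day 120 (log2 fold change 1.29, SE 0.17, adjusted p = 0.0021). FKBP5, a chaperone also induced by it, went the other way, from 18.8 and 20.6 CPM in WT and 14.4 and 15.8 in CF to 8.27 and 8.39 in WT and 9.89 and 5.17 in CF (log2 fold change -1.12, SE 0.20, adjusted p = 0.00936). The groups of KLF9 and FKBP5 did not overlap, so members of this list changed in opposite directions. Of 34 genes of the hypoxia response and glycolysis, 6 rose (5 to 8) and none fell (1 and 2 fell without CF day 120 replicate 1 and 2), and of 31 immediate early and heat shock genes, 8 rose (5 to 10) and 1 fell (0 to 2). The heat shock and immediate early risers numbered 5 without either WT day 100 library or CF day 100 replicate 1, and they included KLF2 (1.68, adjusted p = 0.00859), a factor induced by flow in endothelium, and JUNB. Such genes also respond to handling of tissue, whose part was not tested.

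Of the remaining lists, 6 of 22 cholesterol synthesis genes rose (1 to 11) and none fell (1 without CF day 120 replicate 2), 5 of 32 antioxidant genes rose (2 to 7) and none fell (6 fell without CF day 120 replicate 2), and 7 of 39 regulators of cell motility rose (4 to 11) and 2 fell (1 to 8). Without WT day 100 replicate 1, WT day 120 replicate 1 or either CF day 100 library, 1 or 2 cholesterol genes rose, and without any 1 of the 4 day 100 and 2 WT day 120 libraries 2 or 3 antioxidant genes did. Motility risers numbered 4 without WT day 100 replicate 2, WT day 120 replicate 1 or either CF day 100 library. AOX1, an aldehyde oxidase, was the DEG of the antioxidant list (2.02, adjusted p = 0.000575), and SEMA6D and the netrin NTN4 (1.67, adjusted p = 0.000275) were those of the motility list. Of 16 neuronal and glial genes 1 rose (0 to 2) and 2 fell (0 to 2), and of 10 mesothelial genes 3 rose (0 to 3) and 1 fell (0 to 2). Heart muscle (0 of 7), skeletal muscle (1 of 6) and liver (1 of 7) had no more than 1 riser each and none that fell, beside 5.50% and 4.11% of all genes. When 1 library was left out, skeletal muscle and liver each had 0 or 1 riser and heart muscle had none, and 1 heart muscle and 1 liver gene fell without CF day 120 replicate 2. None of 20 HOX genes passed the test in either direction in edgeR, in DESeq2 or in any of the 8 fits that leave out 1 library, and 0 reached an unadjusted p below 0.05.

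Single calls varied in how firmly they held. Of 146 genes described here that passed at 0.05, 101 passed in all 8 fits that leave out 1 library, 25 lost the call in 1 to 4 of them and 20 in 5 to 7, and none changed sign. Beside those given above, calls were lost in 7 fits for LPL and RGS5, in 6 for PCNA, SREBF1, PTGIS and LOC101113341, and in 5 for KDR, ANGPT2, ANO1, CLIC5, CRABP1, CTGF, CTSH, CXCL1 and ELF5. The fold change of 12 of the 146 moved by over 1.5 times when 1 library was left out. Without CF day 120 replicate 1 the log2 fold change was 1.2 for CLIC5 and 0.88 for RGS5, beside CCL20 and CXCL1 above, and without replicate 2 it was 1.79 for MFAP5, 4.59 for TFF2, -2.77 for SFRP4 and -3.93 for GRP. Without WT day 120 replicate 1 it was -4.14 for KCNN4 and 4.15 for PIGR, without WT day 120 replicate 2 it was -2.68 for FGF20, and without CF day 100 replicate 1 it was 4.12 for SFTPA1. Of the 15 genes described that did not pass, 9 passed in 1 or 2 of the 8 fits, namely ACAN, ACTA2, C1H2orf54, CXCL8, LUZP2, MKI67, SCGB3A2, SCNN1B and TJP1.

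**Figure D3:**
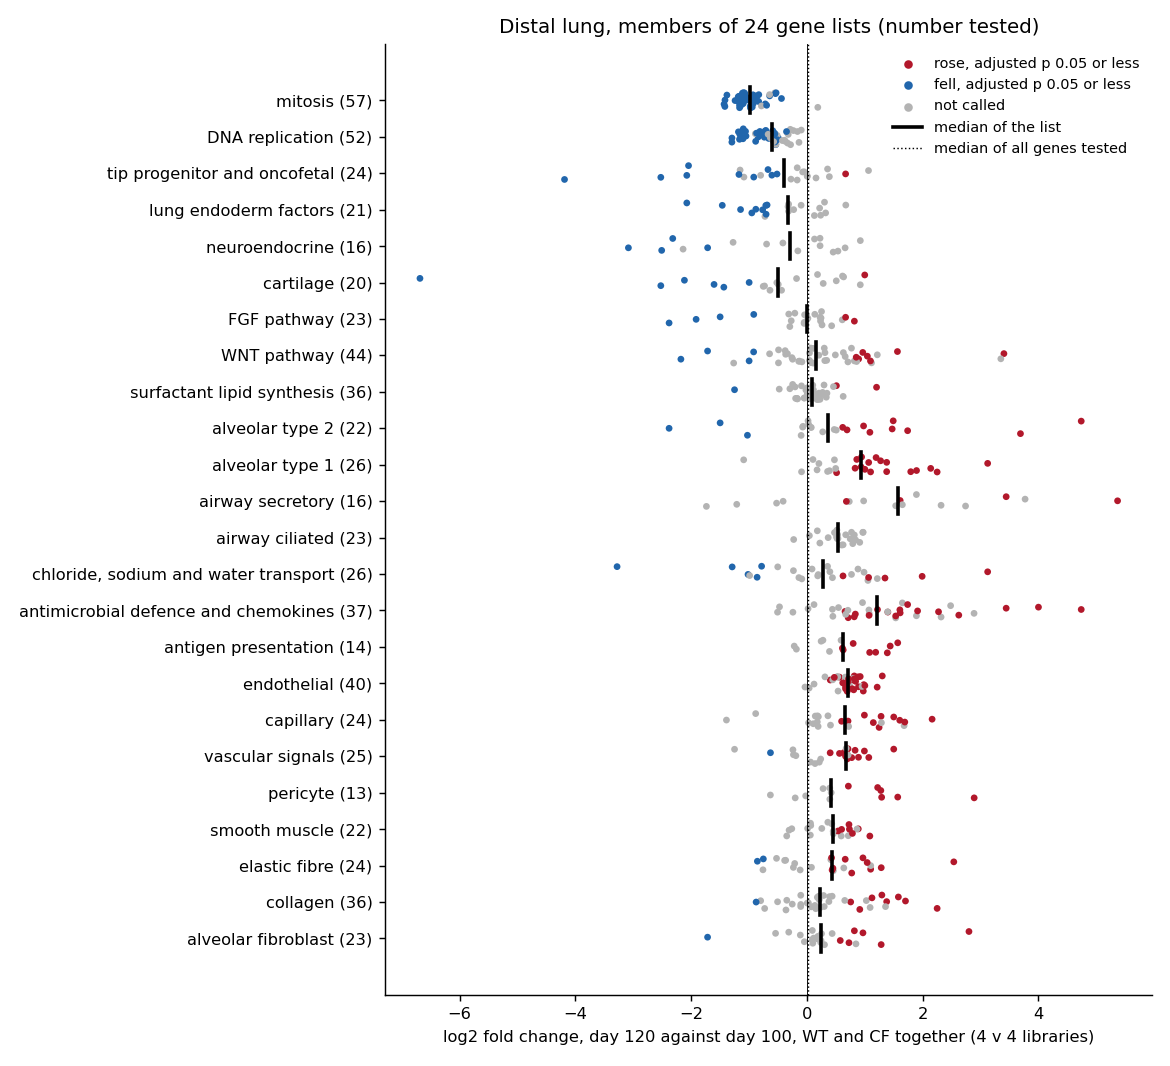
Log2 fold change between day 100 and day 120 (horizontal axis, 4 against 4 libraries) of each member of 24 gene lists, with the number tested in brackets, members that rose in red, members that fell in blue, others in grey, and a black bar at the list's median. The mitosis and DNA replication lists lie below 0 but for 1 mitosis gene (the former with a median of -0.99), and the alveolar type 1 and endothelial lists almost wholly above it (medians 0.94 and 0.71).

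Whether the change itself differed between CF and WT was tested with an interaction term. No gene met the DEG limits, 2 of 18154 genes differed at an adjusted p of 0.05 or less (0.0110%), and 1090 differed at an unadjusted p below 0.05. DESeq2 called 39 DEGs and 155 genes at 0.05 for the same difference. SFTPA1 rose by 3.11 log2 units in WT and 6.35 in CF, a difference of 3.25 (SE 0.29, adjusted p = 0.0378). CF lay below WT at day 100, and at day 120 both CF libraries were over 5 times as high as either WT library. C1H2orf54, also known as MAB21L4, was at 12.4 and 11.5 CPM in WT and 80 and 76.4 in CF at day 100, and at 60.9 and 69.3 in WT and 87.1 and 98.4 in CF at day 120, a change of 2.45 in WT and 0.25 in CF (difference -2.20, SE 0.20, adjusted p = 0.0378). CF lay above WT at both days, by more at day 100.

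The next genes in each direction did not pass. LUZP2, a leucine zipper protein gene, had a difference of -2.18 (SE 0.22, adjusted p = 0.0512), and ASPN, the matrix protein asporin, one of 1.99 (SE 0.22, adjusted p = 0.0711), with a change of -1.85 in WT and 0.14 in CF. C3 rose by 1.23 in WT and 3.83 in CF (difference 2.6, SE 0.32, adjusted p = 0.11), and SFTPB by 0.30 in WT and 1.66 in CF (difference 1.36, SE 0.21, adjusted p = 0.229). CEBPA, a factor of type 2 cell maturation, changed by 1.47 in WT and -0.50 in CF (difference -1.97, SE 0.30, adjusted p = 0.225). The number of such genes rested on the CF day 120 libraries, since 1968 and 1228 genes differed at 0.05 without replicate 1 and replicate 2, and 0 to 2 without any 1 of the other 6 libraries. In the fits behind the larger counts CF day 120 held 1 library, and its spread was taken from groups whose replicates differed less (0.241 to 0.482 log2 units, against 0.782 for the CF day 120 pair). The calls of SFTPA1 and C1H2orf54 as differences were lost in 6 of the 8 fits that leave out 1 library (adjusted p up to 0.71), with the sign kept in each, and the 2 genes called without WT day 120 replicate 1 were other genes.

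**Figure D4:**
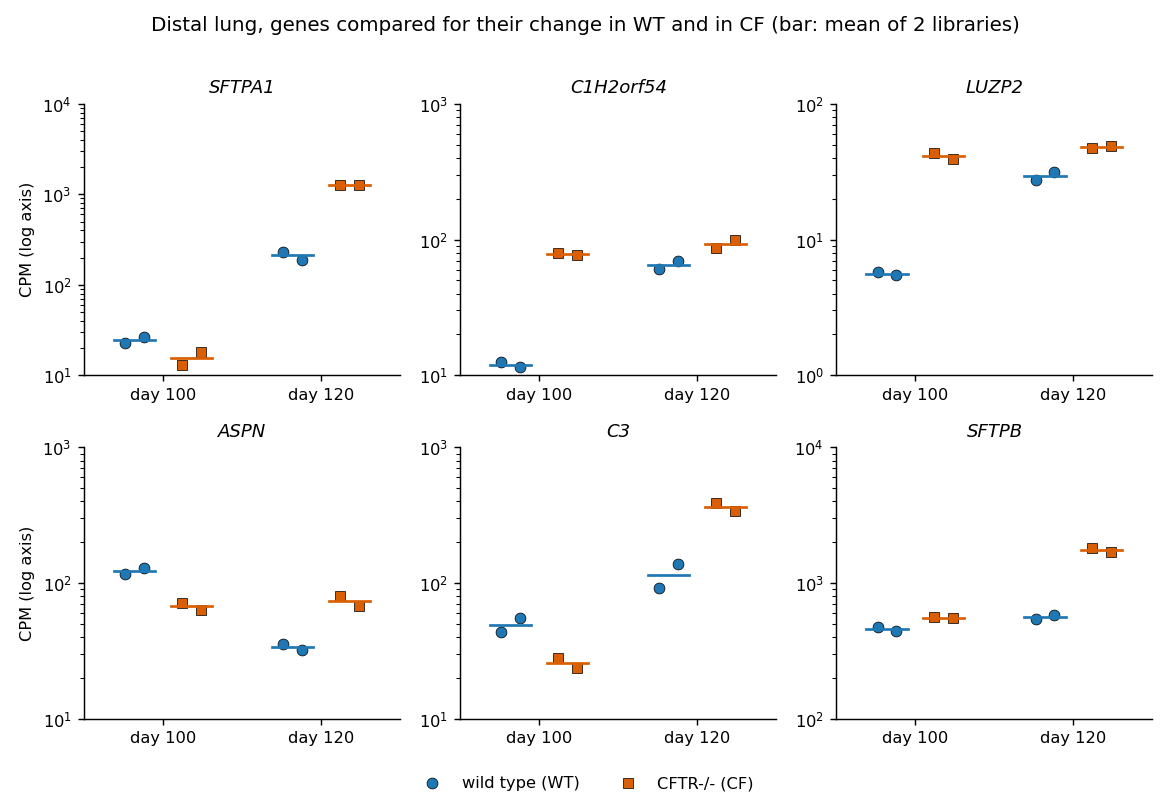
TMM-normalised CPM on a log axis in each of the 8 distal lung libraries for 6 genes whose change was compared between WT (circles) and CF (squares), with day on the horizontal axis and a bar at the mean of the 2 libraries. SFTPA1 reaches 190 to 232 CPM in WT and 1273 and 1278 CPM in CF at day 120, and C1H2orf54 differs between the genotypes at day 100 (11.5 to 12.4 CPM in WT, 76.4 and 80 in CF) more than at day 120.

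Proximal lung of the same animals was sampled at the same days. The change was compared between distal and proximal lung with the animal as a block over 16 libraries. In edgeR none of 19235 genes differed at an adjusted p of 0.05 or less (smallest adjusted p 0.837). An unadjusted p below 0.05 was reached by 413 (2.15%), a smaller share than chance alone would give at that limit. DESeq2 called 1 DEG and 4 genes at 0.05. CF proximal day 120 replicate 2 stood apart, with 0.942% mitochondrial reads against 1.54% to 2.33% in the other libraries of this fit. The lack of calls therefore does not show that distal and proximal lung changed alike. All 79 distal DEGs had the same sign in proximal lung, beside 74.5% of the 17871 genes tested in both, and 41 had an adjusted p of 0.05 or less there, beside 88 of those genes (0.492%). The difference between distal and proximal lung had an unadjusted p below 0.05 in 18 of the 79, genes chosen for their change in distal lung. HSD17B13 rose by 6.42 log2 units in proximal lung beside 5.94 in distal lung, SOX9 fell by 2.26 beside 2.52, and ETV5 fell by 1.81 beside 2.38. COL2A1 had a change of -2.77 in proximal beside -6.69 in distal lung, CDS1 one of -0.23 beside -1.25 and SFRP4 one of 0.01 beside -2.18, none of which passed as a difference after adjustment (adjusted p = 1 for each). The SE of the COL2A1 difference was 1.29 log2 units.

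The same genes were followed over all 20 distal libraries, from day 65 to day 147, on a scale common to those libraries. Since the day 100 and day 120 libraries enter those intervals too, the levels are given side by side with no test. SOX9 was between 89.8 and 134 CPM at day 65, 74.3 and 168 at day 80, 39.2 and 88.3 at day 100, 5.72 and 12.3 at day 120 and 7.77 and 20.3 at day 147. ETV5 lay between 208 and 401 CPM up to day 100, between 40.6 and 51.2 at day 120, and between 12 and 97.5 at day 147. COL2A1 was between 248 and 458 CPM at day 65 and between 0.667 and 2.20 CPM at day 120, where it stayed at day 147 (0.709 to 1.98). For SOX9 and COL2A1 the ranges of day 120 and day 147 thus overlapped. ETV5 at day 147 was at 69.6 and 67.9 CPM in WT and 97.5 in CF replicate 1, above every day 120 library. In CF replicate 2 it was at 12 CPM, below every day 120 library.

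The type 1 genes AQP5 and HOPX had higher levels again at day 147. AQP5 went from 0.548 to 0.876 CPM at day 65 through 1.3 to 2.36, 5.05 to 16.3 and 60.7 to 92.4 to reach 128 to 310 CPM at day 147, with no overlap between neighbouring days. HOPX was between 8.96 and 21.9 CPM at days 65 and 80, between 84.1 and 163 at day 120, and between 440 and 486 at day 147. LAMP3 took another course, at 233 to 349 CPM at day 65, 657 to 719 at day 100, 249 to 394 at day 120 and 558 to 908 at day 147, so that day 120 was a low point between higher levels. TOP2A fell from 211 to 221 CPM at day 100 to 81.7 to 117 at day 120. At day 147 it was at 95.5 and 33.1 CPM in WT and at 7.21 and 7.61 in CF.

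**Figure D5:**
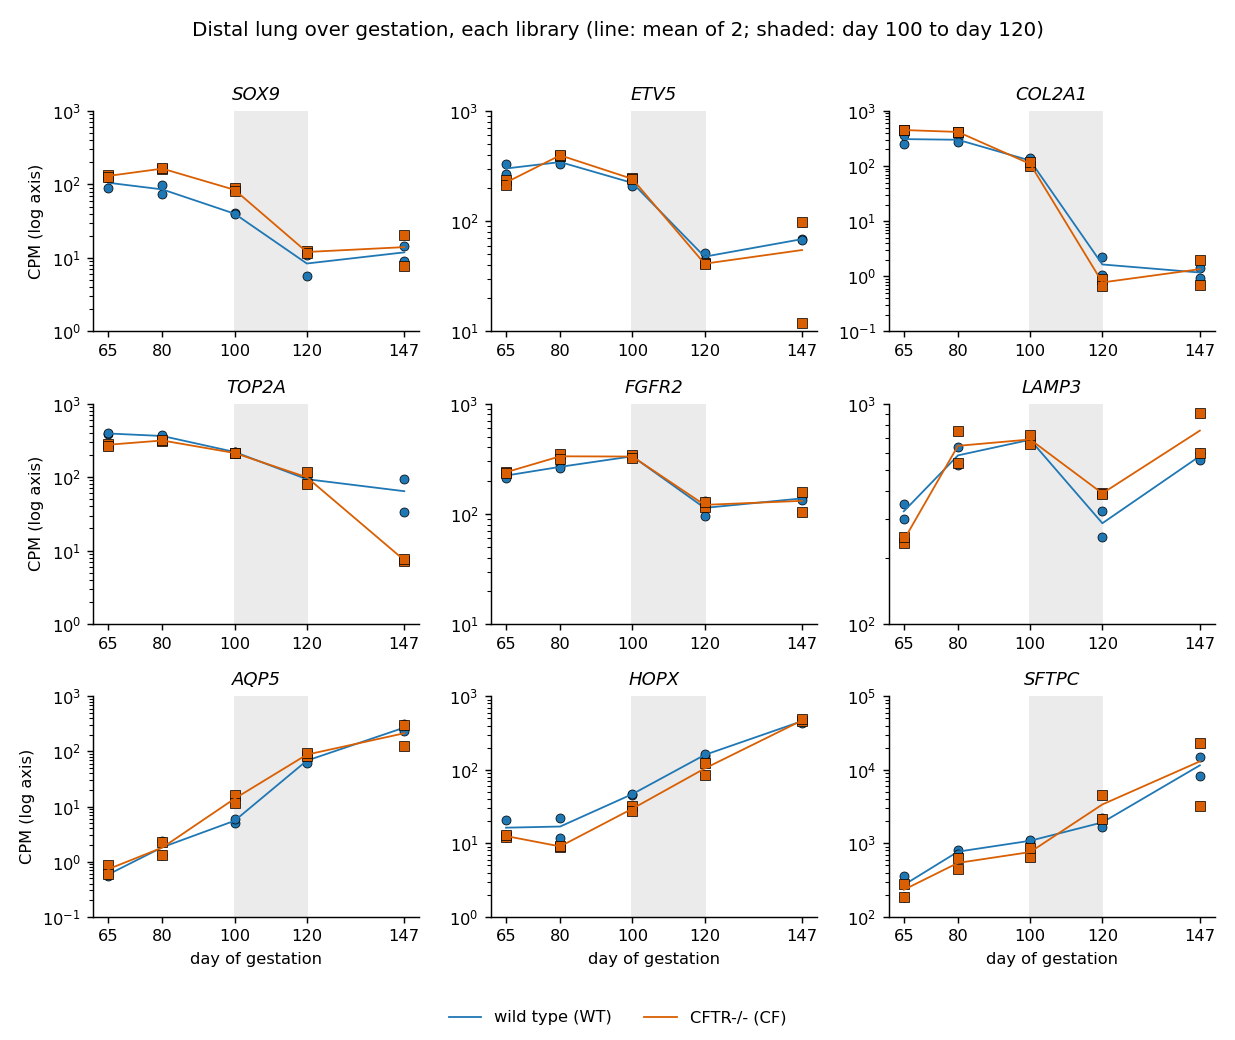
CPM on a log axis in each of the 20 distal lung libraries against day of gestation for 9 genes, with WT as circles, CF as squares, a line through the mean of the 2 libraries and the interval from day 100 to day 120 shaded. SOX9, ETV5 and COL2A1 drop within the shaded interval, AQP5, HOPX and SFTPC rise through it, and LAMP3 dips to 249 to 394 CPM at day 120 before rising again.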

How the data were processed

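Bulk RNA sequencing of fetal sheep lung was analysed from the read counts per gene that the authors deposited, made with STAR 2.6 and featureCounts 1.6.3 per the submitters' processing notes, on Oar_v4.0. The study's methods name another STAR version. The deposited counts were not normalised, and 73.5% to 78.1% of counts between 1 and 20 were even, so a count may hold both mates of a pair. Libraries came from TRIzol RNA selected with oligo dT and read as 100-base pairs.

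Levels and tests used the 8 distal libraries of day 100 and day 120, grouped by the labels. Genes with too few counts were removed with filterByExpr (minimum count 10, minimum total 15), which left 18154 of 24478, and TMM-normalised CPM, the quasi-likelihood test and Benjamini-Hochberg adjustment came from edgeR 4.0.16 in R 4.3.3 (older form of glmQLFit), with genotype and day as terms. The genotype by day term tested the difference between CF and WT, and 16 libraries with the animal as a block tested the difference between distal and proximal lung. DESeq2 1.42.0 and limma 3.58.1 gave alternatives, and the scripts were tested on simulated data. The study describes separate animals for the replicates of a genotype and day, but both WT day 100 libraries carry 1 animal label, so their spread may be technical.

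Named were the 15 DEGs with the largest rise and fall among those of average log2 CPM 1 or more whose groups did not overlap, up to 4 called and the 2 defining members of each list, genes the study names for this interval, and up to 5 genes in each direction of each difference. In addition, 31 genes were named after their values were seen, and a gene that the rule selects is not reported here. The 52 lists and the comparison were chosen with earlier results of these data known. Of 1417 list symbols, 1321 were in the tables, 30 of them through RefSeq names. A further 20 count columns, not used here, repeat CF samples in another table. No coordinates or sequences of another build were used.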

Additional observations from a re-analysis of the deposited data

Results flagged for a closer look

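Both results listed here were chosen because the change between day 100 and day 120 differed between CF and WT by the genotype by day test of edgeR at an adjusted p of 0.05 or less. SFTPA1, the surfactant collectin, rose by 3.11 log2 units in WT and by 6.35 in CF, a difference of 3.25 (SE 0.29, adjusted p = 0.0378), with all 4 libraries of day 120 above all 4 of day 100. C1H2orf54 rose by 2.45 in WT and changed by 0.25 in CF, a difference of -2.20 (SE 0.20, adjusted p = 0.0378). Both calls were lost in 6 of the 8 fits that leave out 1 library, those without any 1 library other than the CF day 120 ones, with adjusted p up to 0.71. Each condition had 2 libraries, too few to look for a library far from its group.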

How the results depend on the processing

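All 79 DEGs kept their direction in the 21 refits compared, and 78 or 79 had an adjusted p of 0.05 or less in each of them except CF alone (8). Other limits on p and glmTreat were not compared gene by gene. The number of DEGs was less stable than their direction. Higher and lower DEGs numbered 147 and 131 without the count filter, 650 and 508 with DESeq2, 208 and 160 with glmTreat, 379 and 304 at an adjusted p limit of 0.01, 847 and 597 at 0.05, 89 and 87 in a fit of all 20 distal libraries, 6 and 6 without the genotype term, 0 and 2 with the WT day 100 libraries summed, and 0 and 0 in CF alone. The bias-adjusted quasi-likelihood gave 59 higher and 56 lower, and WT alone gave 27 and 13. At an adjusted p of 0.05 or less, genes higher and lower numbered 1608 and 1347 with DESeq2, 423 and 320 without the genotype term, 491 and 400 with the WT day 100 libraries summed, and 10 and 6 in CF alone. Leaving out 1 library gave 0 to 122 DEGs higher, 2 to 108 lower, 474 to 1661 genes higher and 369 to 1563 lower at 0.05, and for the CF and WT difference 0 to 3 DEGs and 0 to 1968 genes. The cause was not tested.

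2 alternatives were chosen after seeing the data. With the trend on exon length removed, DEGs numbered 127 higher and 127 lower, and 1158 genes were lower at 0.05. With voom library weights (0.19 and 0.14 for the CF day 120 libraries, 0.90 to 3.27 for the others) they numbered 312 and 197, with 1624 genes higher and 1370 lower at 0.05. The CF and WT difference called 11 and 7 genes at 0.05 under these, 8 without the filter, 0 with the WT day 100 libraries summed, and 39 DEGs and 155 genes with DESeq2, while a limit of 0.05 gave 2 DEGs. The distal and proximal difference called 1 DEG and 4 genes with DESeq2.

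With replicate number as a block, 27 DEGs were higher and 27 lower, and 895 and 696 genes at 0.05, and the CF and WT difference called 3 genes. Same-numbered libraries deviated together with a correlation of 0.07 in WT and 0.31 in CF over 13955 genes, so the numbers were not taken as pairs.

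Uncalled genes changed sign in some fits. ABCA3 lay between -0.20 and 0.285 when 1 library was left out, below 0 without any 1 CF library, at -0.72 in WT alone and at -0.24 with voom. NKX2-1 lay between -0.34 and 0.007 when 1 library was left out (above 0 without CF day 120 replicate 1), at 0.26 in WT alone and at 0.025 with voom. COL1A1 was at -0.059 in WT alone and -0.02 with voom, and in CF alone ASPN was at 0.12 and CEBPA at -0.53. Thinned to 24670355 reads each, the 8 libraries gave 36 DEGs higher and 41 lower.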
